A study of Oryctolagus cuniculus with 6 samples.

Results

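IFIT3, OASL and IRF1, a set of 3 interferon response genes, were followed in newly formed tissue of rabbit skull defects. Their probes were found by symbol, gene number or product name in the annotation of the array, which gave 1 probe for each gene, 3 of the 43603 probes on the array (10663 genes had a name). The study as a whole used 24 male New Zealand White rabbits (4 month old) with circular parietal defects 5 mm wide. Some defects held a 0.2 g graft of HPD, human particulated dentin, and some stayed unfilled as the control. How many of these rabbits gave tissue to the arrays is not stated in the labels. A single array was hybridised for each treatment on day 3, day 5 and day 7, which makes 6 arrays, 3 for each treatment. Filled and unfilled defects were made in the same animals. Whether an array held RNA from 1 rabbit or from several is not stated in the labels, and the design text mentions blood as well as bone tissue. All p-values below therefore measure only the spread between these 6 arrays. In the additive fit of day and treatment used below, the residual spread is how the treatment difference changed between days. That fit cannot tell an HPD effect that differs between days from noise.

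Interferons are secreted proteins that cells release when they sense foreign nucleic acid or when lymphocytes are activated. They act through paired receptors, the JAK kinases and STAT transcription factors, and switch on a large set of antiviral genes. IFIT3 belongs to a family of tetratricopeptide repeat proteins that bind foreign RNA and restrain its translation. OASL resembles the oligoadenylate synthetases, which answer double-stranded RNA, and carries ubiquitin-like domains. IRF1 is a transcription factor of the interferon regulatory factor family and is itself a well-known target of interferon-gamma.

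The sequences of the probes are given because each gene rests on 1 spot of 60 bases per array. Capitals mark the longest run that the probe shared with any other probe of the array. The probes of a pair of IFIT1-like transcripts, here called IFIT1-like a and IFIT1-like b, are shown with them because they lie in the same chromosomal neighbourhood as IFIT3 and are compared with it below.
IFIT3: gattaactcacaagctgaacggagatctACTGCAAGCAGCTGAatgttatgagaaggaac
OASL: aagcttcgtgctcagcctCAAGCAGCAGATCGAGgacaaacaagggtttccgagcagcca
IRF1: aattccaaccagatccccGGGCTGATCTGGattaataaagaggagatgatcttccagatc
IFIT1-like a: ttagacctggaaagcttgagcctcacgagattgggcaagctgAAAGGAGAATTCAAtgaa
IFIT1-like b: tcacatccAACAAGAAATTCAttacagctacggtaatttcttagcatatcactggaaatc

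On the oryCun2 build used by the array files, the IFIT3 probe lay at chr18:37245317-37245376 on the plus strand, and the array labels its transcript as IFIT3-like. The IFIT1-like b probe began 55.8 kb further along at chr18:37301191-37301250, and the IFIT1-like a probe began 57.2 kb further along at chr18:37302567-37302628. The IRF1 probe was placed at chr3:15534961-15536078 on the minus strand, a span of 1118 bases for a probe of 60 bases, so its bases were not contiguous in the genome. The OASL probe is listed as unmapped. Exon and UTR annotations of this build were not used here. The longest run shared with another probe was 15 bases for IFIT3, 16 for OASL and 12 for IRF1. Among the IFIT probes themselves the longest shared run was 9 bases (IFIT3 with IFIT1-like a), 5 bases (IFIT3 with IFIT1-like b) and 7 bases (both IFIT1-like probes). The GC content was 43.3% for IFIT3, 45% for IRF1 and 55.0% for OASL, beside a median of 43.3% on the array.

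All 3 probes were well above background on all 6 arrays, and 0 of their spots were saturated or filled with a substitute value. The IFIT3 spot of the HPD array of day 5 carried an outlier mark for its local background only and was kept. Between 78.1% and 86.4% of the spots of an array were well above background. Both day 3 arrays came from slide 1 and the day 5 and day 7 arrays from slide 2, so slide and day 3 cannot be told apart. Levels are log2 of the processed intensity minus the 75th percentile of the array, so 0 is the 75th percentile. The ± given for a single-day difference is the error that the scanner software estimates for both spots, and it covers no difference between animals. Of 12 markers of fibroblasts and granulation tissue 9 were matched, and their summed level ran from 906 to 3020 (1 equals the 75th percentile). These sums were mostly COL1A2 and COL3A1. PDGFRB lay below the 75th percentile on all 6 arrays, and ACTA2 did on both day 3 arrays (-0.03 in the control, -1.18 with HPD). Of 8 osteoblast markers 5 were matched, with sums from 107 to 432 that were mostly SPP1. On day 3 the osteoblast markers PHEX (-2.29 in the control, -2.44 with HPD) and DMP1 (-2.65 and -3.11) lay well below the 75th percentile. SP7, IBSP and SPP1 lay above it.

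IFIT3 peaked on day 5 in both treatments. In unfilled defects its log2 level was -1.94 on day 3, -0.60 on day 5 and -1.54 on day 7, and with HPD it was -3.04, 0.53 and -1.33. The processed intensity behind these values was 122.6, 265.6 and 106.3 in the control arrays and 55.64, 587.1 and 130.2 in the HPD arrays. The lowest and the highest of the 6 values were thus both HPD arrays, day 3 and day 5, and the control arrays lay between them.

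From day 3 to day 5 the IFIT3 level differed by 1.34 ± 0.21 in the control (2.53-fold higher on day 5) and by 3.57 ± 0.21 with HPD (11.9-fold higher). From day 5 to day 7 it differed by -0.94 ± 0.21 in the control and by -1.86 ± 0.21 with HPD (3.64-fold lower on day 7, where 4.23% of features were at least 2-fold lower). A level at least 2-fold higher on day 5 than on day 3 was found in 4.77% of features in the control and in 3.48% with HPD. A day 5 level above both other days in both treatments occurred in 1724 of the 20228 features tested (8.52%). In limma's fit, with day and treatment as additive terms, day 5 minus day 3 was 2.46 ± 0.55 (SE) for IFIT3 (adjusted p = 0.218), and it did not pass the threshold of 0.05. This comparison called 1 of the 20228 features (0.00494%), which was not a gene of the interferon lists. Day 7 minus day 5, which shares the day 5 arrays, was -1.40 ± 0.55 (limma adjusted p = 0.623), and day 7 minus day 3 was 1.06 ± 0.55 (limma adjusted p = 0.343).

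The difference between HPD and control in IFIT3 had opposite signs on day 3 and day 5. On day 3 it was -1.10 ± 0.21, a level 2.15-fold higher in the unfilled defect. On day 5 it was 1.13 ± 0.20, 2.19-fold higher with HPD. On day 7 it was 0.21 ± 0.21, a difference no larger than its spot error. Of all features well above background on both arrays of a day, 2.91% were at least 2-fold lower with HPD on day 3 and 4.89% were at least 2-fold higher on day 5. Both together were seen in 158 features (0.781% of those tested), of which IFIT3 was 1. The mean over the 3 days was 0.08 ± 0.45 (SE; limma adjusted p = 0.955), and HPD was above control on days 5 and 7. An exact sign-flip permutation test over the 3 day pairs gave a two-sided p of 0.75, where 0.25 is the smallest that 8 flips allow.

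**Figure D1:**
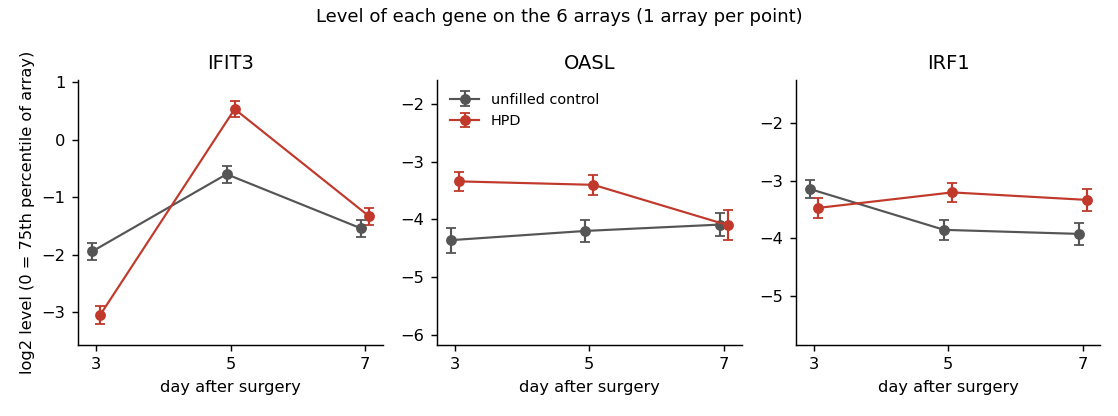
Log2 level (0 is the 75th percentile of the array) of IFIT3, OASL and IRF1 against the day after surgery, with 1 array per point, unfilled control in grey, HPD in red and bars for the spot error estimated by the scanner software. IFIT3 ran from -3.04 (HPD, day 3) to 0.53 (HPD, day 5), OASL was higher with HPD on days 3 and 5, and IRF1 was higher with HPD on days 5 and 7.

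OASL was higher with HPD on days 3 and 5 and level on day 7. Its log2 level in the control was -4.36, -4.20 and -4.09 on days 3, 5 and 7, and with HPD it was -3.34, -3.40 and -4.10. The processed intensity was 22.92, 21.86 and 18.10 in the control and 45.18, 38.44 and 19.18 with HPD, close to the dim end of what the arrays measured. The HPD arrays of days 3 and 5 stood apart from the other 4 arrays, which lay within 0.27 of each other.

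HPD minus control for OASL was 1.02 ± 0.27 on day 3 (2.02-fold), 0.80 ± 0.26 on day 5 (1.74-fold) and 0.00 ± 0.33 on day 7. At least 2-fold higher levels with HPD on day 3 were found in 3.58% of features. A difference above 0 on both day 3 and day 5 was common, at 38.8% of features. The mean over the days was 0.60 ± 0.24 (SE) with a limma adjusted p of 0.557, and the exact sign-flip p was 0.5. In the control the OASL steps were within their spot error, at 0.16 ± 0.29 from day 3 to day 5 and 0.11 ± 0.27 from day 5 to day 7. With HPD the step from day 3 to day 5 was -0.06 ± 0.24 and that from day 5 to day 7 was -0.69 ± 0.32. The last step was -0.38 from mean minus background signal and -0.07 under normexp, and the control step from day 3 to day 5 was 0.50 under normexp. The limma adjusted p of the time comparisons of OASL was 0.943 for day 5 minus day 3, 0.739 for day 7 minus day 5 and 0.664 for day 7 minus day 3.

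IRF1 was lower with HPD on day 3 and higher on days 5 and 7. In the control its log2 level was -3.14, -3.85 and -3.92 on days 3, 5 and 7, and with HPD it was -3.47, -3.20 and -3.33. The processed intensity was 53.52, 27.86 and 20.37 in the control and 41.32, 44.26 and 32.60 with HPD. The highest and the 2 lowest values were control arrays, and the 3 HPD arrays lay between them within 0.27 of each other.

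HPD minus control for IRF1 was -0.34 ± 0.23 on day 3, 0.65 ± 0.24 on day 5 (1.57-fold) and 0.59 ± 0.27 on day 7 (1.51-fold). Below 0 on day 3 and above 0 on days 5 and 7 was the order of signs in 11.1% of features. The mean over the days was 0.30 ± 0.25 (SE; limma adjusted p = 0.653), and the exact sign-flip p was 0.5. In the control IRF1 differed by -0.72 ± 0.23 from day 3 to day 5 and by -0.07 ± 0.25 from day 5 to day 7. With HPD these steps were 0.27 ± 0.24 and -0.13 ± 0.26. The control step from day 3 to day 5 turned to 0.06 under normexp and was -0.59 from mean minus background signal, and the HPD step from day 5 to day 7 was 0.11 and 0.05. The limma adjusted p for IRF1 was 0.723 for day 5 minus day 3, 0.909 for day 7 minus day 5 and 0.573 for day 7 minus day 3. Across all features, limma called 0 of 20228 for HPD minus control (0.0%), and 0 under normexp as well. At an unadjusted limma p under 0.05, 1435 were higher and 283 lower. This balance moved with the scaling: it was 886 and 549 under quantile normalization and 632 and 1064 under median scaling.

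The 3 genes did not share a profile over the 6 arrays. Pearson's r of the log2 levels was 0.0273 between IFIT3 and OASL, 0.0583 between IFIT3 and IRF1 and 0.213 between OASL and IRF1, given as descriptions over 6 arrays. The order of the differences by day also differed: IFIT3 was lowest relative to control on day 3 and highest on day 5, OASL was highest on day 3, and IRF1 was highest on day 5 and close to that on day 7.

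The choice of signal mattered for the dim genes. From the mean signal minus the local background, IFIT3 gave -0.96, 1.06 and 0.18 on days 3, 5 and 7, OASL gave 0.68, 0.60 and 0.09, and IRF1 gave -0.29, 0.45 and 0.49. The signs on days 3 and 5 were those of the processed signal, with smaller sizes, while OASL on day 7 was near 0 under both. With normexp correction, which models the background and adds an offset of 50, IFIT3 was -0.64, 0.92 and 0.11. OASL was then 0.34, -0.02 and -0.03, and IRF1 was -0.14, -0.04 and 0.16. The day 5 differences of OASL and IRF1 were thus near 0 under normexp, whereas those of IFIT3 on days 3 and 5 kept their direction. On day 5 the processed intensity in control and HPD was 21.86 and 38.44 for OASL and 27.86 and 44.26 for IRF1, below this offset. For IFIT3 it was 265.6 and 587.1. An offset larger than the signal shrinks log2 differences by construction, so normexp is not an even check of the 3 genes.

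**Figure D2:**
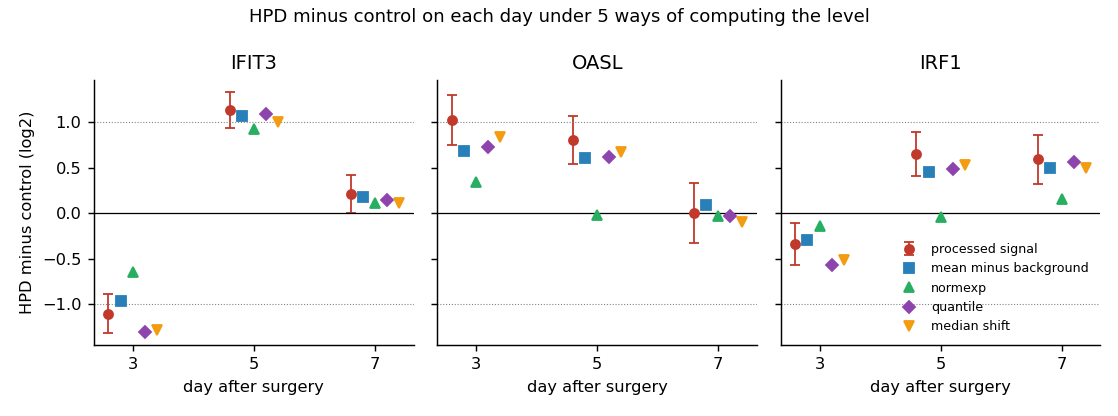
HPD minus control (log2) on days 3, 5 and 7 for the 3 genes under 5 ways of computing the level, with dotted lines at a 2-fold difference and bars for the spot error on the processed signal. IFIT3 stayed below 0 on day 3 and above 0 on day 5 under each, while OASL (-0.02) and IRF1 (-0.04) were near 0 on day 5 under normexp.

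This dependence was shared by other dim features. When all 20228 tested features were divided by mean level into 10 groups of equal size, OASL fell in the group from -4.29 to -3.61 and IRF1 in the next, from -3.61 to -3.00. On day 5 the median HPD minus control was 0.17 in the group of OASL and 0.21 in that of IRF1 with the processed signal, and -0.22 and -0.15 under normexp. On day 3 the medians were 0.28 and 0.24 with the processed signal and 0.12 in both groups under normexp. IFIT3 fell in a brighter group (-1.81 to -1.13), whose medians with the processed signal were 0.17 on day 3, 0.14 on day 5 and 0.13 on day 7.

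**Figure D3:**
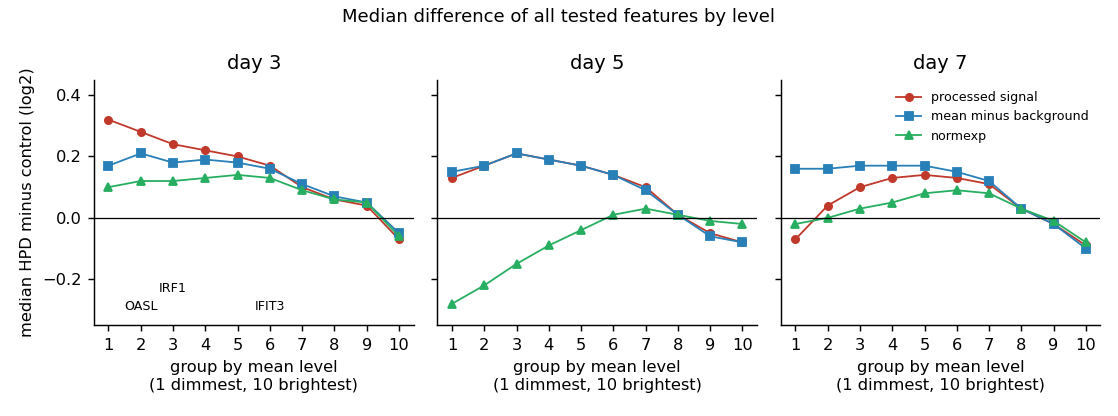
Median HPD minus control (log2) of all tested features in 10 groups by mean level, from the dimmest to the brightest, on each day and for 3 ways of computing the level. On day 5 the groups that held OASL and IRF1 moved from 0.17 and 0.21 with the processed signal to -0.22 and -0.15 under normexp.

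The other IFIT probes on chromosome 18 followed the same course as IFIT3. IFIT1-like a had log2 levels of 2.87, 5.07 and 4.51 in the control and 1.36, 5.97 and 4.39 with HPD on days 3, 5 and 7. IFIT1-like b had 2.67, 5.11 and 3.59 in the control and 0.78, 5.83 and 3.64 with HPD. Both were lowest in the HPD array of day 3 and highest in that of day 5, as IFIT3 was. HPD minus control was -1.51 on day 3 and 0.89 on day 5 for IFIT1-like a, and -1.89 and 0.72 for IFIT1-like b. Day 5 minus day 3 was 3.40 ± 0.59 (SE) and 3.74 ± 0.66, each with a limma adjusted p of 0.212. Under normexp these were 3.26 (limma adjusted p = 0.0449) and 3.59 (limma adjusted p = 0.0416), past the threshold, beside 1.81 for IFIT3 (limma adjusted p = 0.0532), which missed it. That setting called 1.35% of all features.

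The red cell markers ALAS2 and EPB42 moved with the IFIT probes. Of 8 listed red cell markers 4 were matched. Their summed level, most of it ALAS2, was 38.8, 48.7 and 31.7 in the control and 11.3, 70.0 and 28.3 with HPD on days 3, 5 and 7. ALAS2, the haem synthesis enzyme of developing red cells, had log2 levels of 5.14, 5.53 and 4.91 in the control and 3.39, 6.03 and 4.73 with HPD. EPB42, a red cell membrane protein, had 0.66, 1.2 and 0.50 in the control and -1.45, 2.06 and 0.51 with HPD. ALAS2 and EPB42 were thus lowest and highest on the same arrays as IFIT3, HPD day 3 and HPD day 5. The sum followed ALAS2 in this and is not separate evidence. The ammonium channel RHAG and the anion exchanger SLC4A1 did not follow this order, and both were highest in the control of day 3 (0.64 and -1.54). The part of red cells in the IFIT3 result was not tested, and in bulk tissue fewer cells of a type and less RNA per cell cannot be told apart.

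**Figure D4:**
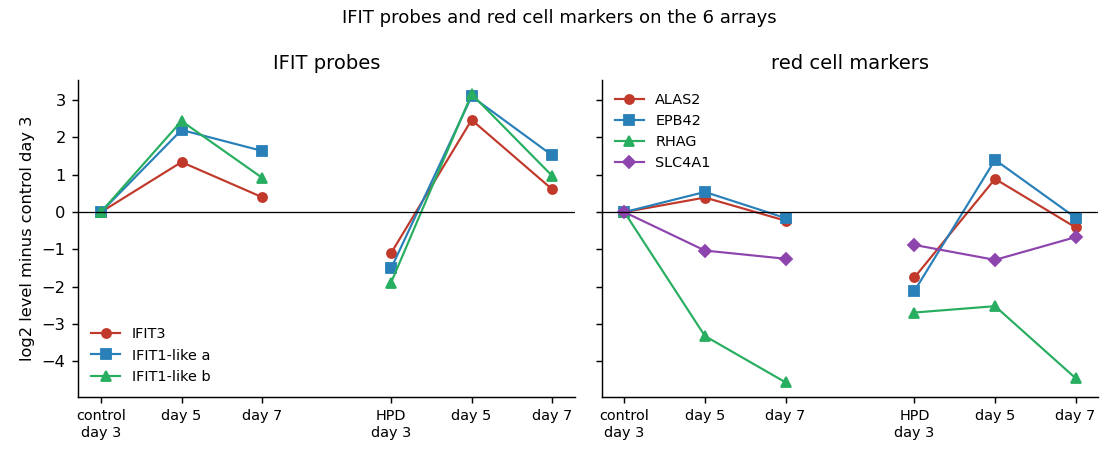
Log2 level minus the value of the day 3 control array for the 3 IFIT probes and for 4 red cell markers on the 6 arrays (1 array per point). The IFIT probes, ALAS2 and EPB42 were lowest in HPD day 3 and highest in HPD day 5, while RHAG and SLC4A1 were highest in control day 3.

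The genes whose levels were most like those of IFIT3 were GDE1 (r = 0.993), BNIP3L (0.993), YPEL5 (0.993), BPGM (0.992) and CPEB4 (0.990), among 618 named genes that were well above background on all 6 arrays and ranged over enough of the log2 scale. BPGM makes the red cell metabolite that lowers the oxygen affinity of haemoglobin, and BNIP3L acts in the removal of mitochondria, which maturing red cells require. BPGM had log2 levels of 6.42, 7.64 and 6.83 in the control and 5.27, 8.33 and 6.96 with HPD. For OASL, among 6500 genes, they were NFKBIZ (r = 0.998), GYS2 (0.978), NOG (0.973), IL17A (0.970) and FSIP2 (0.970). NFKBIZ, a nuclear regulator of NF-kappaB target genes, had -0.66, -0.49 and -0.40 in the control and 0.33, 0.23 and -0.36 with HPD. For IRF1, among 7635 genes, they included UGT2B13 (r = 0.991), FUT1 (0.982), ADD2 (0.967) and AHSG (0.963). These correlations describe 6 arrays, were the highest of many, and carry no test.

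Of 136 other genes or products on the interferon lists, 63 had a matched probe and 60 were tested. For HPD minus control limma called 0 of the 60, and their median was 0.09, the same as that of all features. At an unadjusted limma p under 0.05, 2 of the 60 were higher and 0 lower, beside 1435 and 283 of all 20228 features. On single days the genes differed in sign. On day 3, 25 of 60 were above 0 with a median of -0.08, beside 64.5% and 0.14 for all features. On day 5, 50 of 60 were above 0 with a median of 0.41, beside 58.7% and 0.09. On day 7, 28 of 60 were above 0 with a median of -0.02, beside 56.4% and 0.06. Below 0 on day 3 and above 0 on day 5, as IFIT3 and IRF1 were, were 33 of 60 pathway genes (55.0%) and 19.9% of all features. Under normexp this order was found in 25 of 60 and in 14.3% of all features, 40 of 60 were above 0 on day 5 beside 35.5%, the day 5 median was 0.24 beside -0.10 for all features, and that of day 3 was -0.05 beside 0.10.

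Among the effectors, MX1, a GTPase that traps viral capsids, had HPD minus control of 0.40, 0.85 and -0.02 on days 3, 5 and 7. These values are those of its brighter probe, with 0.22 and 0.10 on days 3 and 5 under normexp. Both of its 2 probes were well above background on all 6 arrays, and the other gave 0.06, 0.71 and 0.26. Both were above 0 on days 3 and 5, as OASL was. IFI44 had -0.25, -0.27 and 0.09. Over all 18 other effectors tested, 7 were above 0 on day 3 (64.5% of all features), 14 on day 5 (58.7%) and 7 on day 7 (56.4%). The day 5 peak in both treatments that IFIT3 showed was seen in 3 of them, both IFIT1-like probes and PNPT1, a mitochondrial RNA-degrading enzyme whose levels spanned only 0.84 to 1.18. Day 5 minus day 3 was called in 0 of the 18. IFIT2, IFIT5, OAS1, OAS2, OAS3, MX2, ISG15 and RSAD2 had no matched probe and were not analysed here.

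Among the ligands, the probes disagreed. Of 2 probes for IFNG, the cytokine of activated T and NK cells, 1 was well above background on all 6 arrays and 1 on none. The bright probe had log2 levels of 2.96, 1.5 and 0.92 in the control and 2.76, 3.08 and 1.68 with HPD, so that HPD minus control was -0.20, 1.58 and 0.75. An IFNA probe was well above background on 1 of 6 arrays. Of 5 probes labelled IFNA5-like, 2 were well above background on all 6 arrays, and the brightest gave -0.34, 0.96 and 0.02. IFNB1 had no matched probe.

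None of the receptors and signal carriers was called for HPD minus control. HPD minus control on days 3, 5 and 7 was 0.30, 0.17 and 0.14 for the receptor chain IFNAR1, 0.16, 0.70 and -0.18 for IFNGR1 and 0.26, 0.29 and 0.09 for IFNGR2. All 8 tested genes of this list had a fitted HPD effect above 0, as had 62.7% of all features, with a median of 0.16 beside 0.09, and 0 of 8 were called. Under normexp IFNAR1 (-0.01) and IFNLR1 (-0.04) were not above 0, and the median was 0.1 beside 0.0. STAT2, SOCS1 and IFNAR2 had no matched probe.

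In the IRF family, all 6 other tested members were below 0 on day 3 and above 0 on day 5, as IRF1 was, an order found in 19.9% of all features. Under normexp 2 of the 6, IRF7 and IRF9, kept it, and IRF1 did not. IRF7, the master regulator of interferon-alpha genes, had log2 levels of 2.74, 2.62 and 2.76 in the control and 2.44, 3.82 and 2.85 with HPD, and HPD minus control was -0.31, 1.2 and 0.08. IRF2, an antagonist of IRF1, had -0.59, 0.51 and 0.15. IRF8, a factor of myeloid cells, had -0.08, 0.75 and -0.19, and IRF9, the DNA-binding part of the complex that answers type I interferon, had -0.62, 0.39 and -0.08. Under normexp the median of the 6 on day 5 was 0.03, beside 0.65 with the processed signal, while IRF7 was at 1.23. IRF3 had no matched probe. None of the 6 was called for HPD minus control. At an unadjusted limma p under 0.05, 0 of the 6 passed, beside 1435 higher and 283 lower of all 20228 features.

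Among the targets of interferon-gamma, on which IRF1 acts, 15 of 16 were above 0 on day 5 (median 0.80, under normexp 0.47), beside 58.7% of all features. On day 3, 5 of 16 were above 0 (median -0.32), beside 64.5%. PSMB9, a subunit of the immunoproteasome, had log2 levels of 4.56, 2.28 and 1.51 in the control and 3.29, 3.14 and 1.61 with HPD, so HPD minus control was -1.26, 0.86 and 0.11. Its partner PSMB8 had -1.21, 0.93 and -0.23, and the peptide transporter TAP1 had -0.92, 0.60 and -0.08. GBP1-like, a guanylate-binding protein, had -0.31, 0.57 and 0.20. The chemokine CXCL10 differed from these, with 0.16, -0.02 and -0.32. The only other pathway gene at least 2-fold lower on day 3 and at least 2-fold higher on day 5, as IFIT3 was, was CASP1, the inflammatory caspase, chosen here after its values were seen. All 7 CASP1 probes showed this, from -1.41 to -1.06 on day 3 and from 1.07 to 1.21 on day 5. CXCL9, CXCL11 and GBP2 had no matched probe.

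Markers of several leukocyte types also differed between the arrays. The summed level of 7 matched neutrophil markers (of 10) was 1430, 214 and 16.5 in the control and 517, 651 and 48.8 with HPD on days 3, 5 and 7. S100A8 and S100A9 made up most of these sums. With HPD 1, 6 and 7 of the 7 neutrophil markers were higher on days 3, 5 and 7, beside 64.5%, 58.7% and 56.4% of all features. On day 5 CAMP (-0.55 in the control, -0.62 with HPD) and LCN2 (-2.59 and -2.57) hardly differed. That of 9 T and NK lymphocyte markers (of 12) was 5.64, 2.49 and 2.26 in the control and 4.86, 4.15 and 2.85 with HPD. Macrophage and monocyte markers (7 of 10) had a higher sum with HPD on each day, and CD14 was the largest part of each sum. Of these 7 markers 5, 7 and 5 were higher with HPD on days 3, 5 and 7, beside 64.5%, 58.7% and 56.4% of all features. The sums were 43.6, 34.1 and 23.2 against 29.1, 16.9 and 17.6. Eosinophil markers (2 of 5) summed to 14.9 in the control of day 3 and to 1.32 with HPD, and to at most 0.165 on the other arrays. Endothelial sums (5 of 7) lay between 3.75 and 5.18, those of B and plasma cells (2 of 7) between 3.44 and 5.04 and those of dendritic cells (4 of 10) between 2.90 and 3.42. The part of these cells in the differences of the interferon genes was not tested.

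Among the sensors of foreign RNA, RIGI peaked on day 5 in both treatments, at 0.83 in the control and 1.2 with HPD, and its day 5 minus day 3 was 0.81 ± 0.25 (SE; limma adjusted p = 0.265). IFIH1, which detects long double-stranded RNA, was 1.41, 2.20 and 2.15 in the control and 1.43, 1.99 and 2.11 with HPD on days 3, 5 and 7. HPD minus control was -0.07, 0.37 and -0.47 for RIGI and 0.02, -0.21 and -0.05 for IFIH1. Over the list of 10, the median was 0.05 on day 3, 0.09 on day 5 and -0.09 on day 7, beside 0.14, 0.09 and 0.06 for all features. Under normexp the day 5 median of the list was -0.10, the same as that of all features.

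**Figure D5:**
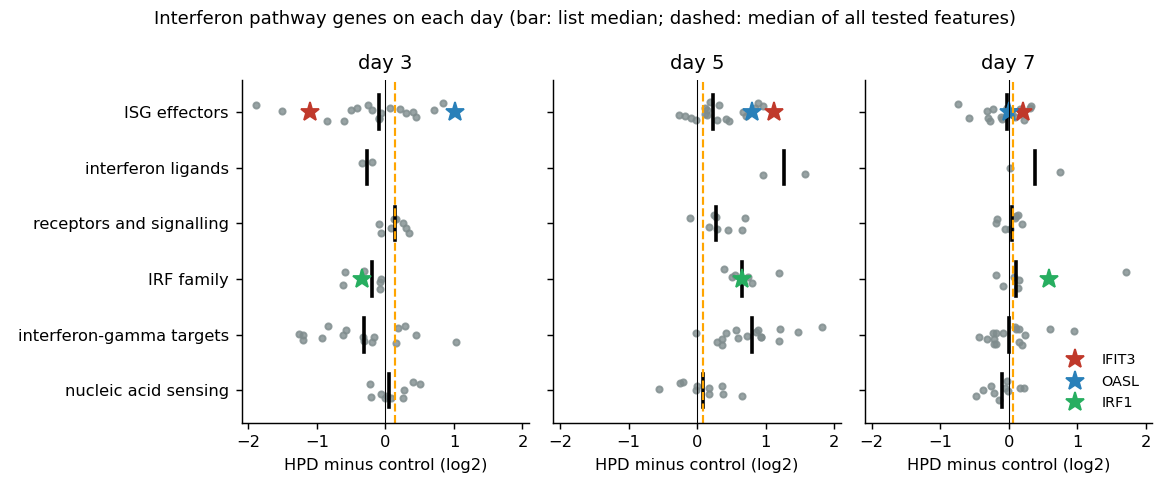
HPD minus control (log2) on each day for the tested interferon genes by list (grey points, 1 gene each), with the median of each list without IFIT3, OASL and IRF1 as a bar, these 3 as stars and the median of all tested features dashed. On day 5 the median of interferon-gamma targets was 0.80 and that of the IRF family 0.65, beside 0.09 for all features.

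Over time, limma called 0 of the 60 other pathway genes for day 5 minus day 3, with 7 higher and 5 lower at an unadjusted p under 0.05, beside 6.26% and 10.1% of all features. Day 7 minus day 5 called 0 of 60 as well, with 2 higher and 7 lower at an unadjusted p under 0.05, beside 4.75% and 3.32%. Day 7 minus day 3 also called 0 of 60, with 8 higher and 18 lower, beside 10.7% and 10.1%. Across all features, the comparisons of day 7 with days 5 and 3 called 0 (0.0%) and 1 (0.00494%). Under normexp, which called 5.05% of all features for day 7 minus day 3, 4 pathway genes rose and 4 fell in that comparison. EIF2AK2, the RNA-activated kinase that halts translation, rose by 0.96 (limma adjusted p = 0.0384), with IFI44 at 0.72, MX-like at 0.78 and the cytokine subunit IL12B at 1.35. The IL12B value is that of the brighter of 2 probes, and 1 of the 2 was well above background on all 6 arrays. With the processed signal these probes disagreed for day 5 minus day 3, at -0.88 and 1.78. CD74, the invariant chain of antigen presentation, fell by 2.14 (limma adjusted p = 0.0131), with PSMB9 at -2.47 and IFNGR1 at -1.24 among the others. IFIT3 (0.73), OASL (0.26) and IRF1 (0.12) were not called there.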

How the data were processed

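The deposited files hold the intensity of each spot, unlogged. Per the file headers, Agilent Feature Extraction 10.5.1.1 produced them from single-dye (Cy3) arrays, with spatial detrending, multiplicative detrending and surrogate values where a spot was dim. Per the labels' protocols, 0.2 μg of RNA was amplified for each array. The processed intensity was put on a log2 scale and shifted so that the 75th percentile of each array is 0. Afterwards 41 probes with outlier marks of their spots were left out. Probes were named from the array's columns and a RefSeq gene table (mOryCun1.1, names only), and the brightest probe stood for a gene. A feature was tested if at least 3 of 6 arrays held it well above background (20228 of 23377), with limma 3.58.1 in R 4.3.3, with day and treatment as additive terms (2 residual degrees of freedom, 2.46 from the prior) and Benjamini-Hochberg adjustment at 0.05. Day is the block of the treatment comparison. On a single day there is 1 array per treatment and no test. Tables were made in pandas 2.3.3 and plots in matplotlib 3.10.9 (Python 3.11.15, with numpy 2.4.6).

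Members, lists, tests and named genes (a preset set of interferon genes, and the 5 genes most like each member with at least 0.5 of its range) were chosen with earlier results of these data known. Some genes that this rule names are not reported here. Alternatives were normexp, mean minus background signal, quantile and median scaling, the mean of all probes, other filters, leaving out a day, and leaving out day or treatment. On simulated data for HPD minus control, with 50 features changed at each size among 20228, the fit recovered 2, 29, 35 and 41 at log2 changes of 1, 2, 3 and 4. The simulated noise was normal, with the fitted residual spreads (2 residual degrees of freedom each) shuffled between features. Recovery among the real features can therefore differ from these counts. The number of arrays limits the precision.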

Additional observations from a re-analysis of the deposited data

Results flagged for a closer look

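IFIT3 had HPD minus control differences of opposite sign, each past 2-fold, on day 3 (-1.10) and day 5 (1.13). With 1 array per treatment and day, the difference between those days was not tested. Under normexp the values were -0.64 and 0.92.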

How the results depend on the processing

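Of 114 alternative fits of the 3 genes, 57 returned the same estimate by construction (1 probe per gene, balanced arrays) and say nothing about direction. Among the other 57, the 10 with the other sign were the HPD effect of IFIT3 under quantile normalization (-0.02), median scaling (-0.06) and without day 5 (-0.45, and 0.67 without day 3), the HPD effect of IRF1 under normexp (-0.01), and time comparisons of the dim genes: OASL day 7 minus day 3 under normexp (0.26) and from mean minus background (0.02), IRF1 day 7 minus day 5 under the same (0.01 and 0.03), and IRF1 under normexp for day 5 minus day 3 (0.11) and day 7 minus day 3 (0.12). Of 36 single-day values, without the mean of all probes, 28 stayed within the spot error, 6 moved, and OASL (-0.02) and IRF1 (-0.04) changed sign on day 5 under normexp. Leaving out each day in turn gave HPD effects from -0.45 to 0.67 for IFIT3, 0.40 to 0.91 for OASL and 0.13 to 0.62 for IRF1. The cause of these shifts was not tested.

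Counts of called features for day 5 minus day 3 were 274 under normexp, 17 with treatment left out, and 0 under quantile normalization, with no filter or without day 7. For day 7 minus day 5 they were 2 under normexp and 3 with treatment left out. For day 7 minus day 3 they were 1021 under normexp, 380 with treatment left out, and 0 under quantile normalization, with no filter or without day 5. Without day as a block the HPD comparison still called 0 features, and the adjusted p was 0.995 for IFIT3, 0.875 for OASL and 0.879 for IRF1. Numbered replicates do not exist here: no paired analysis beyond the day block was possible because each treatment and day has 1 array. OASL and IRF1 lie near the dim end of the arrays, where the sizes of differences moved with the background correction.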
